A study of Mus musculus with 20 samples.

Results

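The major urinary proteins are described here through 8 of their genes in the mouse liver: Mup1, Mup2, Mup3, Mup7, Mup11, Mup17, Mup20 and Mup21. They were chosen by symbol, with earlier results of these tables known, from the 18149 genes listed for both sexes; the male table alone lists 56884. Livers came from WT and Midn-T mice, with 3 animals of each genotype and sex in the RNA-seq, all aged 11 to 14 weeks. Midn encodes midnolin, a nuclear protein that brings transcription factors to the proteasome. Both genotypes carry a gene-trap cassette, called XTR, in an intron of Midn; the labels give WT as Midn XTR and Midn-T as Midn TR. In Midn-T the cassette was inverted by Cre from the Albumin promoter, which the authors used to inactivate Midn selectively in hepatocytes. Whether all other liver cells keep the untrapped allele was not tested here. Whether the WT animals also carried Cre is not given in the sources used here.

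Major urinary proteins are small lipocalins, barrel-shaped carriers of hydrophobic molecules. Hepatocytes secrete them into the blood, the kidney passes them into the urine, and there they hold and slowly release volatile pheromones, so that male urine in particular carries a scent mark. Their genes form a single cluster on chromosome 4, in which a central array of near-identical copies lies between more divergent genes at the edges. Transcription of many of them is known to depend on growth hormone, whose pulses in males act through STAT5b.

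The values are the authors' means over the 6 samples of 1 sex, with WT and Midn-T pooled, of read counts divided by size factors; they are called mean normalized counts below. They come with no value for a single sample, so no SD, test or comparison of Midn-T with WT is given, and neither the effect of Midn on these genes nor the level of Midn in each genotype was analysed here. A difference between the sexes also holds whatever the pooling of genotypes, batch and separate normalization of each sex added, and these cannot be told apart. Because 6 samples stand behind each mean and their spread is unknown, it cannot be said which neighbours in an order of levels differ beyond their spread. In whole liver, fewer cells of a type and less RNA per cell cannot be told apart either.

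The 8 genes spanned 2 Mb of the GRCm39 assembly, all on the minus strand of chromosome 4. Mup7 lies at chr4:60066445-60070490, Mup2 at chr4:60135925-60154325, Mup1 at chr4:60453986-60458057 and Mup11 at chr4:60614440-60618509. Mup17 lies at chr4:61510140-61514185, Mup3 at chr4:61947447-62005620, Mup20 at chr4:61968464-61972395 and Mup21 at chr4:62066056-62069175. Mup20 sits inside the span of Mup3, but no exon of Mup20 overlaps an annotated exon of another gene on its strand. The annotation holds 22 protein-coding Mup genes, all on chromosome 4, and 27 Mup pseudogenes.

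The first coding exons are shown because their likeness bears on which gene a read can be assigned to. Each sequence below runs 5′ to 3′ from the start codon to the end of that exon on the minus strand, with capitals for bases that differ from Mup17 or are inserted relative to it. Mup17, the reference, has none.
Mup17: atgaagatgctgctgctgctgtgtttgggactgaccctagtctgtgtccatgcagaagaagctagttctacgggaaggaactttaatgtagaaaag
Mup1: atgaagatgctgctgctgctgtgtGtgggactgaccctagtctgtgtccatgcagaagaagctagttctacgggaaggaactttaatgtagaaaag
Mup2: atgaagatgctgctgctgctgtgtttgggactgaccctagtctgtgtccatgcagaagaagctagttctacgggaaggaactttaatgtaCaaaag
Mup7: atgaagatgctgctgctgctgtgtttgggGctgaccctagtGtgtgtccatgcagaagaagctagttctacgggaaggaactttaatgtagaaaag
Mup11: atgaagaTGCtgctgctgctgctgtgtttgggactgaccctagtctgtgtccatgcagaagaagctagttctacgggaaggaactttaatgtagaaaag
Mup20: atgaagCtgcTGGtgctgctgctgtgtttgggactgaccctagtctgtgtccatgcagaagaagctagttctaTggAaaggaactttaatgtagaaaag
Mup21: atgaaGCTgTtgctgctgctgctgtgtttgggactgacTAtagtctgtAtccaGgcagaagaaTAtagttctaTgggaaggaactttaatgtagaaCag
Mup3: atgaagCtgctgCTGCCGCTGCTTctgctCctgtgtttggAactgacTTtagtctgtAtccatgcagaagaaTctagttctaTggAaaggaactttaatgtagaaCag

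Mup1 and Mup2 differed from Mup17 at 1 base of this exon, and Mup7 at 2. Mup11 differed by 3 inserted bases alone. The exon of Mup20 carried 3 substitutions and 3 inserted bases, that of Mup21 carried 9 and 3, and that of Mup3 carried 10 and 12. These exons occupy chr4:61513902-61513997 in Mup17, chr4:60457753-60457848 in Mup1, chr4:60139691-60139786 in Mup2, chr4:60070205-60070300 in Mup7 and chr4:60618201-60618299 in Mup11. Those of Mup20, Mup21 and Mup3 occupy chr4:61972188-61972286, chr4:62068891-62068989 and chr4:62005361-62005468.

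Over the whole coding sequence the genes fell into 3 levels of likeness. Mup1, Mup2, Mup7, Mup11 and Mup17, the members of the array type, were identical to each other at 98.70 to 99.81% of paired bases, and Mup2 and Mup11 differed by 1 substitution and 3 bases without a partner. Mup20 encodes darcin, the male pheromone protein that female mice learn and remember, and it matched those 5 genes at 90.56 to 91.48%. Mup3 and Mup21 were alike at 96.32%, yet matched the array-type genes at only 83.89 to 85.00%. The coding sequence of Mup3 was annotated as 879 bases in 7 exons, against 540 or 543 bases in 6 exons for the other members, and bases without a partner were left out of all these percentages.

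**Figure D1:**
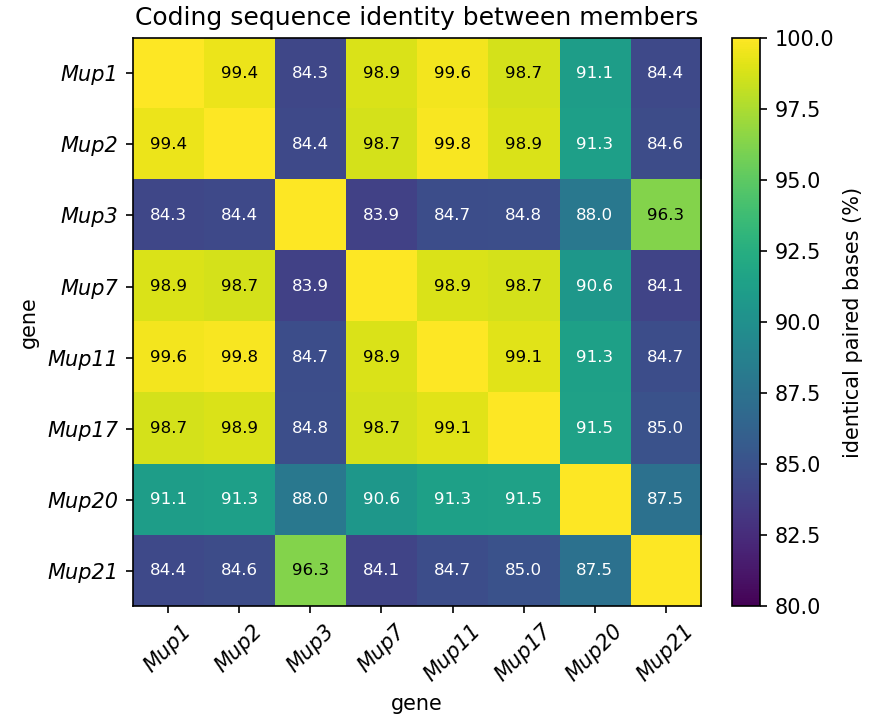
Percentage of paired coding bases that are identical between each pair of the 8 genes, with the colour scale running from 80 to 100%. Mup1, Mup2, Mup7, Mup11 and Mup17 form a block at or above 98.7%, Mup20 stands at about 91% from it, and Mup3 pairs with Mup21 at 96.3%.

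Mup3 had by far the highest count of the members in both sexes, before any allowance for reads shared between copies. Its mean normalized count was 184320.6 in males and 73924.1 in females, which placed it 16th and 43rd among all genes of the male and female table. The other genes stood well below it in either sex.

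Mup7 and Mup20 came next in males. Mup7 had a mean normalized count of 40345.6 in males and 368.7 in females. Mup20, the darcin gene, stood at 37524.0 in males and 619.3 in females. In males they ranked 87th and 93rd of the 56884 genes listed, and in females 7614th and 5895th of 18149. The female list holds no gene with a mean below 6.61, so male and female ranks are on unlike lists.

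The other array-type genes covered a wide range. Mup11 stood at 12270.4 in males and 1763 in females, and Mup17 at 4685 and 2576. Mup1 had 593.4 in males and 21.17 in females, the lowest mean of any member. Mup2 had 168 and 157.3, nearly the same value in both tables. Mup21, the partner of Mup3 in sequence, had 4707 in males and 146.9 in females. Its male level was close to that of Mup17, but its female level was far lower.

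**Figure D2:**
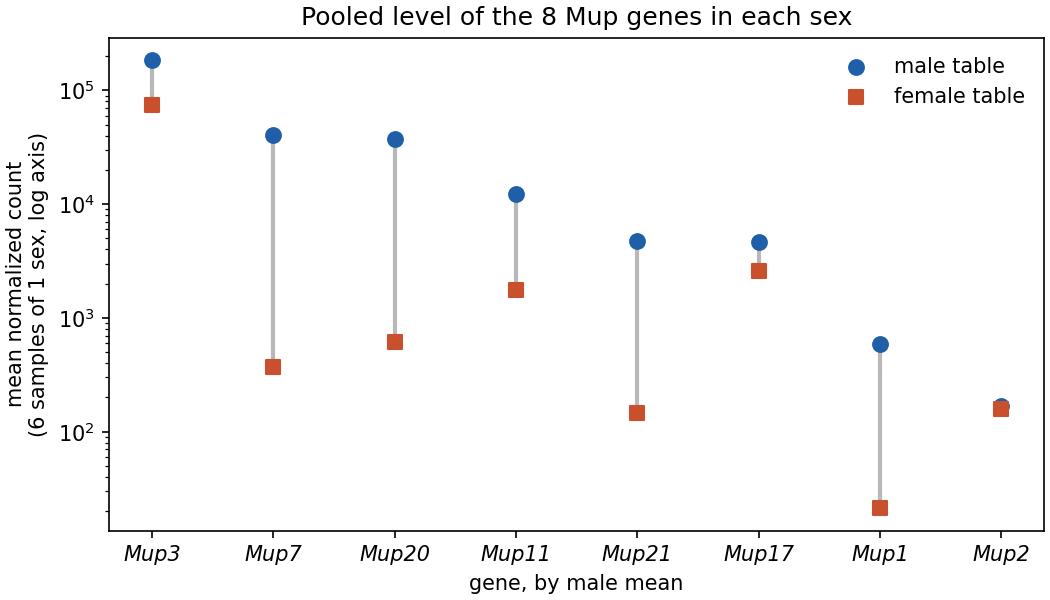
Mean normalized count of each gene (log axis) in the male table (circles) and the female table (squares), each a mean over 6 samples with WT and Midn-T pooled, so no error bars can be drawn. Mup3 tops both tables at 184320.6 and 73924.1, while Mup2 has nearly the same mean in each.

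Long transcripts collect more reads, so levels of different genes were also set side by side as mean normalized counts per kb of exon. On that scale the male order was Mup3 (86576.2), Mup20 (19864.5), Mup7 (15803.2), Mup11 (6105), Mup21 (4808), Mup17 (2203), Mup1 (347.6) and Mup2 (110.4). The female order was Mup3 (34722.4), Mup17 (1211), Mup11 (877), Mup20 (327.9), Mup21 (150.1), Mup7 (144.4), Mup2 (103.4) and Mup1 (12.4). Mup3 stayed first, whereas Mup17 rose from the sixth place in males to the second in females and Mup7 went from the third place to the sixth.

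The 8 genes together made up 0.94% of all normalized counts in males and 0.259% in females. Mup3 alone supplied 64.8% of the members' sum in males and 92.9% in females. Mup7 supplied 14.2% of it in males and 0.463% in females, and Mup20 13.2% and 0.778%. The counted female reads of these genes were thus nearly all from Mup3, while the male ones were shared with Mup7, Mup20 and Mup11. Only reads mapped to 1 place were counted. Of the 150-base stretches of Mup3, 99.8% were found nowhere else, against 11.0 to 59.9% for the array-type genes and Mup20. All shares in this paragraph therefore give Mup3 more weight than those copies, as taken up below. The members held 94.5% of the counts of all 49 Mup genes and pseudogenes in the male table, and 93.7% over the 25 listed in the female table.

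The male over female ratio was computed after scaling both tables to the same sum over the genes listed in both. Since the tables were normalized separately by the authors, and the genes were chosen with results known, these ratios are a description with no test. Mup7 had the highest ratio of the members, 111-fold (6.80 on the log2 scale). Mup20 followed with 61.6-fold (5.95), Mup21 with 32.6-fold (5.03) and Mup1 with 28.5-fold (4.83). Mup11 was 7.08-fold higher in males (2.82) and Mup3 was 2.54-fold higher (1.34). Mup17 stood at 1.85-fold (0.89) and Mup2 at 1.09-fold (0.12), both within 2-fold.

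Of the 8 members, 6 were at least 2-fold higher in the male table and 0 were at least 2-fold higher in the female table. Among the 11443 genes listed in both tables with a mean of 100 or more in either, 1.53% were higher in males by that much and 1.99% were higher in females. Genes not listed for females, such as Ddx3y (3147 in males), are left out of the male share and of the ranks below. The median log2 ratio was 3.83 over the members and 0.01 over those genes. Mup7, Mup20, Mup21 and Mup1 ranked 3rd, 5th, 8th and 11th among the 11440 of them with a mean above 0 in both tables. Mup1, with 593.4 in males and 21.17 in females, reached the minimum mean of 100 only through the male table. Mup2 ranked 3659th.

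**Figure D3:**
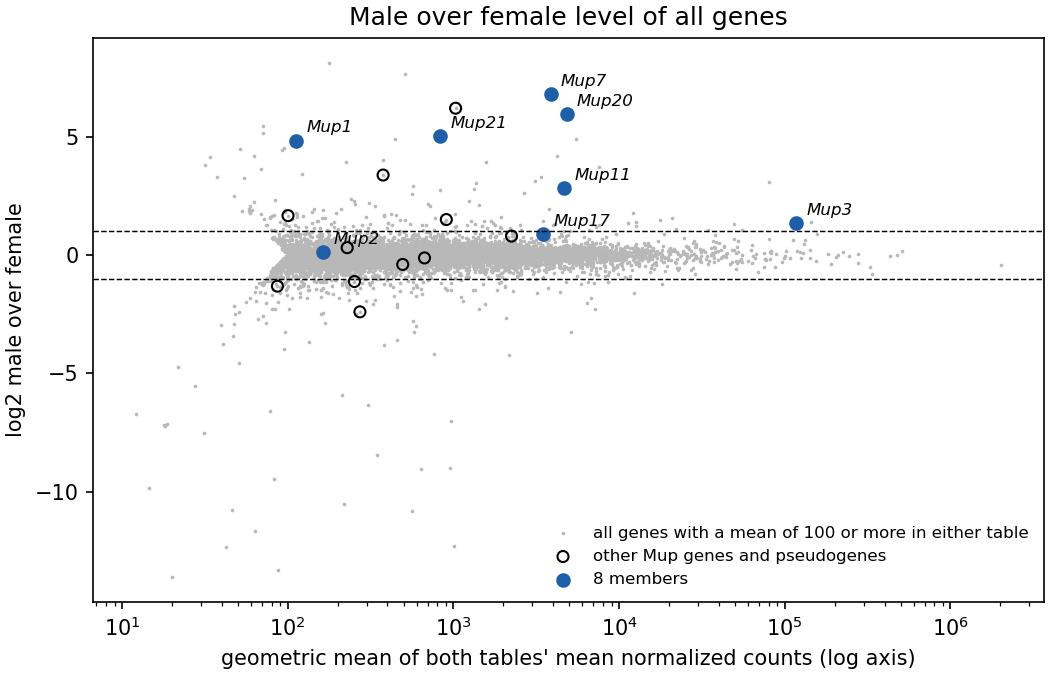
Log2 male over female ratio against the geometric mean of both tables' mean normalized counts (log axis) for genes listed in both tables. Each gene has a mean of at least 100 in either table, and dashed lines mark 2-fold. Filled points are the 8 genes, of which 6 lie above the upper line, and open circles are other Mup genes and pseudogenes.

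Summed over the members, the male level was 3.64-fold the female level (1.86 on the log2 scale). Without Mup3 the sum was 18-fold higher in males (4.17), so the summed ratio mostly followed that of Mup3. The genes with a mean of at least 1000 in both tables whose ratio lay nearest to that of the sum were Csad, which encodes an enzyme of taurine synthesis (1.95), Ttc39c (1.75) and Pfkfb3, which encodes a regulator of glycolysis (1.62), all on the log2 scale.

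Several pairs that are close in sequence or position had ratios far apart. Mup2 and Mup11 differed by 1 substitution and 3 unpaired bases in the coding sequence, and their ratios were 1.09-fold and 7.08-fold. Of the 150-base stretches of Mup2, only 11.0% were found nowhere else and 69.2% were also in Mup11, as taken up below. Mup7 and Mup17 were identical at 98.70% of paired bases and stood at 111-fold and 1.85-fold. Their shares of stretches found nowhere else were 39.4% and 59.9%. Mup3 and Mup21, alike at 96.32%, stood at 2.54-fold and 32.6-fold. Mup20 lies within the span of Mup3, and its ratio of 61.6-fold was far above that of Mup3.

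**Figure D4:**
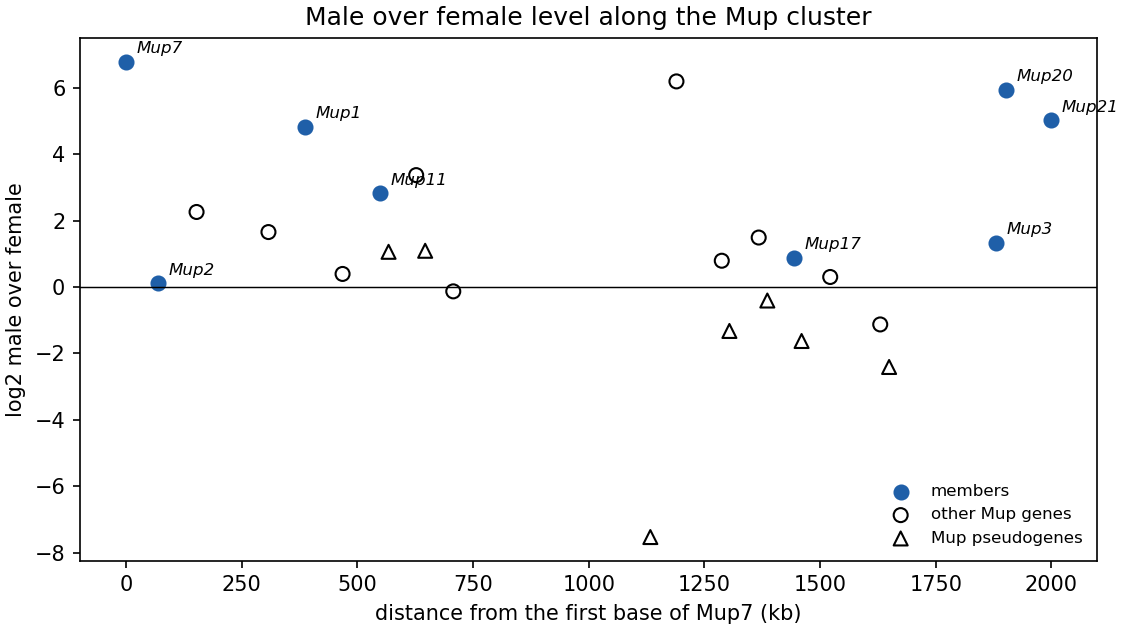
Log2 male over female ratio of each Mup gene listed in both tables against its distance in kb from the first base of Mup7, with filled circles for the 8 members, open circles for other Mup genes and triangles for pseudogenes. High and low ratios lie side by side along the cluster, as for Mup7 and Mup2 at its left end and Mup3 and Mup20 at its right end.

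Only reads that mapped to 1 place were counted, so how much of each transcript is found nowhere else bears on every level above. Each canonical transcript was broken into all windows of 150 bases, the length of a single read, and each window was searched for on both strands of the GRCm39 genome and in the annotated transcripts of other genes. All windows of Mup21 were found nowhere else (100%), as were 99.8% of those of Mup3. The share was 59.9% for Mup17, 39.7% for Mup20, 39.4% for Mup7, 31.4% for Mup1, 23.7% for Mup11 and 11.0% for Mup2. In windows of 31 bases it was 72.0% for Mup21 and 64.3% for Mup3, and from 0 to 13.0% for the other 6 genes.

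The windows that were not unique mostly lay in other copies of the array. Mup2 shared 69.2% of its windows with Mup11, 53.9% with Mup14 and 49.5% with Mup8. Mup7 shared 46.0% with Mup15, and Mup1 shared 66.4% with Mup12. Mup20 shared none with another member: 38.9% of its windows were also in the pseudogene Mup-ps19, and 164 windows also had a match outside annotated Mup genes, starting within chr4:61867376-61878257, a stretch that spans Mup-ps19. Levels of Mup1, Mup2, Mup7, Mup11, Mup17 and Mup20 are uncertain for this reason, since reads with a match in another copy were not counted. Their male over female ratios lose the same windows in both sexes and rest on the unique ones alone. Whether reads of another copy were assigned to these genes was not tested, so their ratios are uncertain too. These are exact matches of single reads, and a read pair covers more sequence than 1 window.

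**Figure D5:**
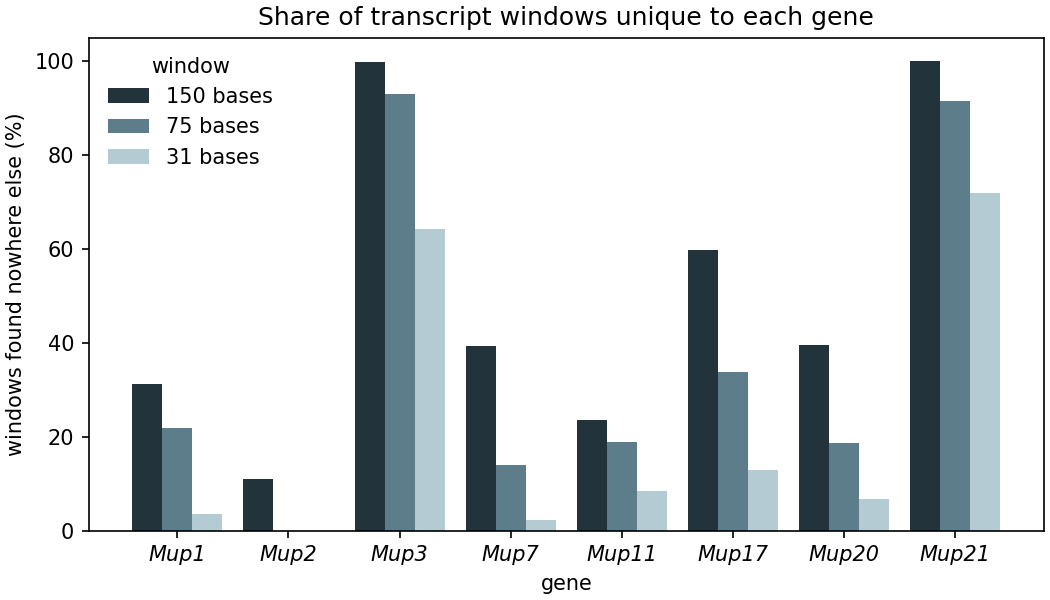
Share of windows (%) of each gene's canonical transcript found nowhere else, for windows of 150, 75 and 31 bases. Mup3 and Mup21 stay above 60% at every length, while Mup2 falls from 11.0% at 150 bases to 0 at 75 and 31.

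When the mean was divided by the number of unique 150-base windows instead of exon length, Mup3, Mup20, Mup7 and Mup11 kept the first 4 places in males. The values were 205, 121, 62.7 and 59 normalized counts per unique window. On this scale Mup3 stood less far above Mup20 in males than by mean normalized count. In females Mup3 stayed first at 82.1, and Mup2 moved from the seventh place to the fourth, at 2.18 per unique window.

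The remaining Mup genes gave a mixed picture in the same ratio. Mup14, another copy of the array, had a mean normalized count of 8759 in males and 121.3 in females, a 73.5-fold difference. Mup12 was 10.4-fold, Mup9 3.16-fold and Mup16 2.82-fold higher in males, and Mup15, Mup18 and Mup22 lay within 2-fold. Mup19 went the other way, with 169.7 in males and 376.3 in females, 2.18-fold higher in females. Only 1.01% of the 150-base windows of Mup19 were found nowhere else. That share was 7.69% for Mup22, 8.39% for Mup15 and 14.25% for Mup18. It ran from 23.43% (Mup9) to 32.41% (Mup14) in the 4 male-higher copies. The levels of all these copies are therefore uncertain too. Their ratios rest on few unique windows, and whether they hold reads of another copy was not tested. Of the Mup genes and pseudogenes that are no members, 41 were in the male table and 17 in both, and 11 of these had a mean of at least 100 in either table. Of the 11, 4 were 2-fold or more higher in males and 3 in females, beside 1.53% and 1.99% of all genes compared. The 3 higher in females were Mup19, Mup-ps12 and Mup-ps16. Mup9, with 176.9 in males and 56.95 in females, reached the minimum mean of 100 only through the male table. Mup-ps12 had 54.34 in males and 138.1 in females, and so reached that minimum only through the female table. Of its exon bases, 68.1% overlap another annotated transcript on the same strand. Mup-ps16 had 117.4 in males and 633.4 in females, and all of its exon bases overlap an annotated transcript on the same strand, Gm13775. The edge genes Mup4 and Mup5 had means of 1.05 and 1.19 in males. The lowest mean in the female table was 6.61, and genes not listed there, these 2 included, have no ratio.

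Other liver genes with known sex bias followed their names. All 17 male-biased genes that could be compared were at least 2-fold higher in males, with a median log2 ratio of 3.70. Cyp4a12a, a male-specific fatty acid hydroxylase, stood at 7120 in males and 36.32 in females. All 21 female-biased genes that could be compared were at least 2-fold higher in females, counting Cyp3a41b, which is listed at 0 in the male table. Moxd1 (161 in males) and A1bg (0.773 in males) are not listed in the female table and were not compared. Both lists were made of genes known for their sex bias, so their directions only check the sex labels. Xist was 14.04 in males and 72477.6 in females, and Ddx3y, Uty, Kdm5d and Eif2s3y were listed in the male table alone.

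Of 19 genes of the growth hormone pathway and of Mup regulation, 1 was at least 2-fold higher in males and 1 in females, beside 1.53% and 1.99% of all genes compared. Their median log2 ratio was -0.01. Ghr, the growth hormone receptor, had mean normalized counts of 23122.9 in males and 21480.7 in females, and Stat5b 2003 and 2786. Bcl6, a repressor that competes with STAT5, was 2.22-fold higher in males. Socs2, a STAT5 target that dampens the receptor, was 2.69-fold higher in females.

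Among other lipocalin genes, none of the 9 that could be compared was 2-fold higher in males, and Orm3 and Ptgds were 2.79-fold and 3.90-fold higher in females, beside 1.53% and 1.99% of all genes compared. Ptgds (32.25 in males and 127.8 in females) reached the minimum mean of 100 only through the female table. Rbp4, the plasma retinol carrier, had 51085.3 in males and 44688.7 in females, and Ambp 45319.8 and 43860.8.

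The tissue label was borne out by its markers. The 9 hepatocyte markers listed made up 8.87% of the male and 10.5% of the female counts, and Alb was the highest gene of both tables. Marker lists of Kupffer cells (0.0301 and 0.0312% in males and females), endothelial cells (0.0357 and 0.0404%), stellate cells (0.0300 and 0.0386%) and cholangiocytes (0.00351 and 0.00386%) were low in both. No gene of these lists with a mean of at least 100 passed 2-fold between the sexes. Among all genes compared, only 1.53% were that much higher in males and 1.99% in females, so none in such short lists says little of these cells.

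The 300 bases around each annotated start, 250 before and 50 after, were searched for 4 motifs on both strands. TATAAA, the letters of the TATA box core, was among the members in Mup20 alone, with its first base at -183 from the annotated start, and in 13.2% of the 21757 protein-coding promoters. TTCNNNGAA, the palindrome that STAT5 binds, was in 0 of 8 members and 8.82% of all promoters, and TTGCNNAA, a C/EBP type site, in 0 and 10.7%. TGTTCT, a short motif of steroid receptor sites, was in Mup3, Mup20 and Mup21 and in 17% of all. The annotated starts lie from 109 bases (Mup20) to 209 bases (Mup1) before the start codon, so these windows do not cover the same position in each gene. A match is a description of the letters and no match says nothing of binding.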

How the data were processed

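Liver RNA-seq of 12 mice (3 WT and 3 Midn-T of each sex) was analysed; the ATAC-seq lists hold only peaks selected by the authors' comparison and were not used. The authors aligned paired 150-base reads to GRCm39 with STAR (2.7 in the submitters' processing notes), used HTSeq, set for reverse-stranded libraries, to count reads mapped to 1 place for each Ensembl gene, and applied DESeq2 to each sex. The deposited signal is the authors' mean over 6 samples of counts divided by size factors. The remaining columns hold the authors' comparison of Midn-T with WT (log2 fold changes, errors, Wald statistics, p-values) and were not used, so depth per sample and replicate error are unknown here.

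Tables were joined by Ensembl identifier. Ratios were scaled to the sum over shared genes, with a 2-fold threshold and a minimum mean of 100. Exons, starts and coding sequences came from GENCODE on GRCm39, a different annotation release from the authors'. Window searches (Python 3.11.15, numba 0.67.0) were tested on simulated sequences, and identities used Biopython 1.88. Searching transcripts as well as the genome, and leaving unpaired bases out of identities, were chosen after seeing the data. The members and lists were chosen with earlier results of these data known, and 1 gene of the growth hormone list is not reported here. Genes were named by rule: the members, other Mup genes, list genes on which a count turns, and the 3 nearest in ratio to the members' sum; Cyp4a12a, Moxd1, A1bg, Ghr, Stat5b, Rbp4 and Ambp were named after their values were seen.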

Additional observations from a re-analysis of the deposited data

How the results depend on the processing

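Across 3 other scalings (none, median ratio, sum without Mup genes), all 24 member ratios stayed on the same side of 2-fold, 6 members stayed male-higher, and the log2 ratio moved by at most 0.03. Over protein-coding genes alone the members' share was 0.984% in males and 0.274% in females. The background higher in females was 3.59% with a minimum mean of 10; that minimum adds genes low in the male table, while genes low in females are not listed. Ranked per longest transcript, 6 of 8 members kept their place in each sex, and per unique window 6 in males and 3 in females. The median unique share was 39.5% at 150 bases, 20.4% at 75 and 7.55% at 31. On the promoter's own strand TGTTCT was in 2 members instead of 3, and in 8.82% of all promoters instead of 17%. No paired analysis was possible because the values are pooled over samples, and leaving out replicates was not run for the same reason. Depth and replicate spread are unknown, so no difference between the sexes has an error.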
